A study of Mus musculus with 20 samples.

Results

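The 2 day dataset held 10 of the 20 samples of the series, 5 from mice given vehicle and 5 from mice given corticosterone (Cort), and its members were taken by the column names of the raw count table. Mice were male C57BL6/J, recorded as 10 weeks old, and drank water with 1% ethanol (vehicle) or with Cort at 75 μg/ml in the same ethanol for 2 days. The arcuate nucleus (ARC) was cut from stained coronal sections by laser capture, its RNA was amplified, and the libraries were sequenced in 1 lane. The libraries are named here by the numbers in the count table: vehicle C02, C04, C05, C07 and C09, and Cort C01, C03, C06, C08 and C10. The study left out vehicle C07 and C09 and Cort C08 as outliers of a principal component analysis, so counts and fold changes are given over the 7 samples kept (3 vehicle, 4 Cort) and over all 10.

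Corticosterone is the main glucocorticoid of mice. It binds the glucocorticoid receptor, encoded by Nr3c1, which in the unbound state sits in the cytosol with Hsp90 and cochaperones and after binding enters the nucleus and changes the transcription of genes near the DNA sites it occupies. The ARC lies at the base of the hypothalamus beside the median eminence and the third ventricle, and holds the AgRP/NPY neurons that drive feeding and the POMC neurons that restrain it, together with astrocytes, oligodendrocytes, microglia and the tanycytes that line the ventricle. The 2 day time point addresses which genes of this nucleus respond early to Cort.

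Total counts per sample were 2487063 to 5748223, and 3 counts, treated as the floor of a single library, corresponded to 0.512 to 1.19 CPM, the counts scaled to a common library total. Floors cover counting error only. Of the arcuate markers, Agrp, Npy, Pomc, Cartpt, Ghrh, Tac2, Th, Slc6a3 and Tbx3 were above the floor in each of the 10 samples, whereas Kiss1 was at or under it in 8. The ventromedial marker Nr5a1 was listed at 0 in 4 samples and did not exceed 2.44 CPM. Other ventromedial markers, Cbln1 (8.35 to 39.65 CPM) and Slit3 (2.28 to 20.54 CPM), were above the floor in each sample. Adcyap1 was at or under it in 1 sample and Fezf1 in 3. The ependymal marker Tmem212 was listed at 0 in 9 samples, while Ccdc153 was at or under the floor in 8 and Foxj1 in 1. The choroid plexus markers Folr1 and Kcnj13 were at or under the floor in each sample, and Ttr in 1. The 3 samples left out had the highest shares of counts in cytosolic ribosomal proteins (1.47% to 1.62%, against 0.786% to 1.03% in the 7 kept), and Spearman correlations between libraries were 0.861 to 0.900 for pairs that include one of them and 0.904 to 0.938 for the other pairs. The labels number the samples of a group but name no mice, so p-values measure the spread between these samples, which may be technical in part.

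Over the 7 samples kept, 7 genes rose and 1 fell after 2 days of Cort at an adjusted p below 0.1 by edgeR's quasi-likelihood test with Benjamini-Hochberg adjustment, which is 0.065% of 12309 genes tested (0.0569% higher and 0.00812% lower). Mobp, Fam107a, Agrp, Serpina3n, Fam213a, Glul and Sepp1 rose, and 1110008L16Rik fell. In each of these 8 the groups did not overlap over 7 samples, which gives an exact permutation p of 0.057 (2-sided), the smallest that 3 against 4 samples allow. Over all 10 samples 2 genes rose, Serpina3n and Fkbp5, which is 0.0167% of 11983 genes tested. No gene fell over the 10 by edgeR. At an unadjusted P below 0.05, 330 genes were lower (2.75% of those tested) and 303 higher (2.53%), and DESeq2 called 9 lower. Serpina3n was the 1 gene called in both sets. At an unadjusted P below 0.01 there were 102 higher and 81 lower genes over 7 samples (1.49% of those tested, 0.829% higher and 0.658% lower) and 66 higher and 67 lower over 10 (1.11%, 0.551% higher and 0.559% lower). At P below 0.05 the share was 5.97% over 7 and 5.28% over 10. Groups did not overlap over 7 for 372 higher genes (3.02%) and 444 lower (3.61%), and whether these counts mark a response to Cort was not tested. DESeq2, the tool of the study, gave 34 higher and 18 lower genes at its adjusted p below 0.1 over 7 samples. These are 0.213% and 0.113% of 15995 genes with a DESeq2 P value. Over 10 it gave 16 higher and 9 lower (0.0999% and 0.0562% of 16019). Its own filter left some of these genes without an adjusted p, so the shares are not of the genes adjusted.

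Serpina3n, a secreted serine protease inhibitor made by astrocytes among other cells, separated the groups over all 10 samples. It was at 215, 179 and 211 CPM in vehicle C02, C04 and C05, and 183 and 142 CPM in vehicle C07 and C09. The Cort samples had 730.2, 552, 282 and 519 CPM in Cort C01, C03, C06 and C10, and 750.4 CPM in Cort C08. Cort C06 was the lowest of its group and still lay above each vehicle sample. The rise was 1.38 ± 0.22 (log2 fold change ± SE) over 7 samples, with adjusted p = 0.011, and 1.62 ± 0.21 over 10, with adjusted p = 0.0011. All 19 alternative fits over 10 samples called it, whereas over 7 the call was lost in 1 of 14, the fit without vehicle C02 (adjusted p = 0.15). The gene lies at chr12:104406729-104414329, plus strand (GRCm38), in a cluster of near-identical Serpina3 copies between which reads of 50 bases can be split, so its counts are uncertain in that respect.

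Fkbp5 encodes a cochaperone of Hsp90 that lowers the affinity of the glucocorticoid receptor for hormone and is a widely used marker of receptor activity. Vehicle samples had 25.9, 21.6 and 19.7 CPM in vehicle C02, C04 and C05, and 9.52 and 23.96 CPM in vehicle C07 and C09. Levels in the Cort group were 82.3, 67.02, 30.7 and 84.3 CPM in Cort C01, C03, C06 and C10, and 98.7 CPM in Cort C08. No Cort sample overlapped a vehicle sample, and C06 was again the lowest of the Cort group. Over 10 samples Fkbp5 rose by 1.86 ± 0.34 on the log2 scale (adjusted p = 0.091). Over 7 the log2 fold change of 1.57 ± 0.35 did not pass (adjusted p = 0.24), and leaving out any of the samples other than Cort C06 from the 10 ended the call, with adjusted p between 0.11 and 0.52. DESeq2 called it in both sets, with adjusted p of 0.0069 and 1.5e-04. The gene lies at chr17:28399094-28517527, minus strand.

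**Figure D1:**
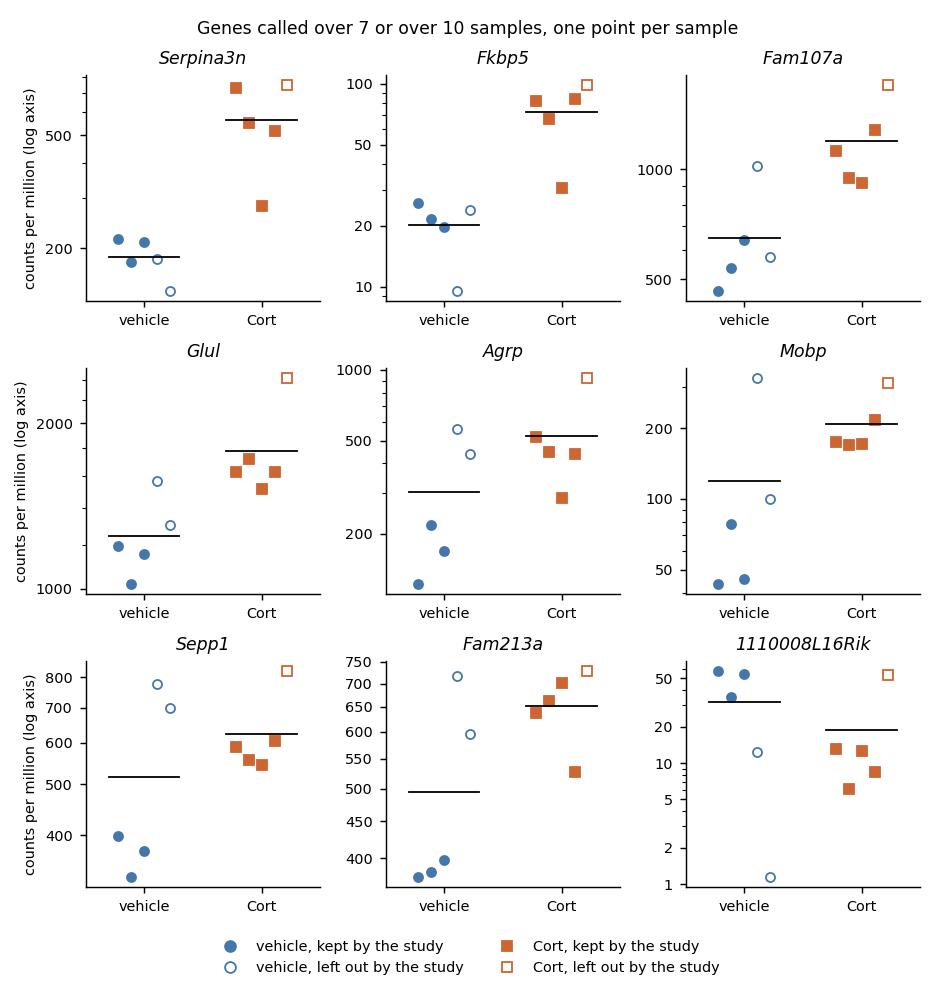
CPM on a log axis in each of the 5 vehicle and 5 Cort samples for the 9 genes called by edgeR over 7 or over 10 samples. Filled symbols are samples kept by the study, open symbols are C07, C09 (vehicle) and C08 (Cort), and lines are means of 5 samples. Groups do not overlap over all 10 for Serpina3n and Fkbp5, while for the other 7 genes an open symbol reaches into the other group.

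Fam107a encodes an actin-associated protein of neurons and astrocytes that is induced by stress and glucocorticoids. In vehicle it was at 464, 535 and 639 CPM in vehicle C02, C04 and C05, and 1021 and 577 CPM in vehicle C07 and C09. In Cort it was at 1124, 945, 916 and 1282 CPM in Cort C01, C03, C06 and C10, and 1704 CPM in Cort C08. Vehicle C07 overlapped the Cort samples and the other 4 vehicle samples did not. Its log2 fold change was 0.98 ± 0.14 over 7 samples, a rise with adjusted p = 0.0048, and 0.89 ± 0.19 over 10, where edgeR gave adjusted p = 0.26 and DESeq2 0.038. Without vehicle C07 it passed over the remaining 9 samples (adjusted p = 0.00758). Glul, glutamine synthetase, which astrocytes use to clear glutamate, had 1195, 1020.0, 1158, 1569 and 1304 CPM in vehicle C02, C04, C05, C07 and C09, in that order. Its Cort values were 1627, 1720.0, 1516, 1630.0 and 2416 CPM in C01, C03, C06, C10 and C08. Here too it was vehicle C07 that reached the Cort range. Glul rose over 7 samples (0.54 ± 0.10, adjusted p = 0.042) and had 0.52 ± 0.14 over 10 (adjusted p = 0.74). Fam107a lies at chr14:8296274-8318023, minus strand, and Glul at chr1:153899944-153909723, plus strand.

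Agrp, the peptide of the neurons that drive feeding and an antagonist at melanocortin receptors, was at 122, 219 and 169 CPM in vehicle C02, C04 and C05, and 560.2 and 437 CPM in vehicle C07 and C09. Cort samples had 520.1, 447, 285 and 438 CPM in Cort C01, C03, C06 and C10, and 924 CPM in Cort C08. Among the samples kept, the highest vehicle value was below the lowest Cort value, but both vehicle samples left out lay within the range of the Cort group. The rise over 7 was 1.32 ± 0.20 (adjusted p = 0.01). Over 10 samples the log2 fold change was 0.81 ± 0.33 (adjusted p = 0.92). Agrp (annotated at chr8:105566698-105637393, minus strand) shares 11.3% of its exon bases with Ctcf and Gm5914. The strand setting of the counting is not given in the sources used here, so reads in the shared part cannot be assigned.

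Mobp, a protein of the myelin sheath, was at 43.5, 78.7 and 45.5 CPM in vehicle C02, C04 and C05, and 326 and 100.1 CPM in vehicle C07 and C09. Its values in Cort were 174, 169.7, 171 and 217 CPM in Cort C01, C03, C06 and C10, and 311 CPM in Cort C08. Vehicle C07 was the highest of the 10 samples. Mobp rose by 1.72 ± 0.23 over 7 samples (adjusted p = 0.0032), with a call in each of the 14 alternative fits, and had a log2 fold change of 0.82 ± 0.39 over 10 (adjusted p = 0.94). Over 10 it was called without vehicle C07 (1.65, adjusted p = 0.0112) and by limma voom (1.51, adjusted p = 0.0364). The summed CPM of 25 oligodendrocyte genes was 1277 to 1425 in the vehicle samples kept and 1365 to 1969 in the Cort samples kept. In the samples left out it was 2552 (vehicle C07), 2043 (vehicle C09) and 2473 (Cort C08). Its part in the Mobp result was not tested over 7 samples. Over 10, the mean log2 CPM of this list, which includes Mobp, was also used as a covariate. With it edgeR gave Mobp a log2 fold change of 0.92 (unadjusted P = 0.010, adjusted p = 0.69), against an unadjusted P of 0.046 without it. Because the covariate holds Mobp itself, this fit cannot tell the part of the list in the Mobp result.

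Sepp1 encodes selenoprotein P, which carries selenium to cells, and Fam213a a peroxiredoxin-like protein. Sepp1 had 398, 333, 373, 776 and 698 CPM in vehicle (order as for Glul). Its level in Cort was 590.3, 556, 544, 605 and 822 CPM. Both vehicle samples left out were above each of the 4 Cort samples kept. It rose by 0.65 ± 0.12 over 7 samples (adjusted p = 0.055) and had 0.28 ± 0.20 over 10 (adjusted p = 0.98). Of its exon bases 15.4% are shared with Ccdc152, so part of its reads could belong to either gene. In Fam213a the vehicle samples left out lay within or above the range of the Cort samples kept. It was at 376, 383, 398, 718 and 595 CPM in the vehicle samples and 637, 662, 701, 527 and 728 CPM in the Cort samples, a rise of 0.72 ± 0.13 over 7 (adjusted p = 0.03) against 0.41 ± 0.17 over 10 (adjusted p = 0.93). The 1 gene that fell over 7 samples, 1110008L16Rik, was at 57.5, 34.9 and 54.3 CPM in vehicle C02, C04 and C05, and 12.3 and 1.14 CPM in vehicle C07 and C09. The Cort values were 12.97, 6.06, 12.5 and 8.35 CPM in Cort C01, C03, C06 and C10, and 53.03 CPM in Cort C08. Here the left-out samples were reversed, with Cort C08 at the level of the vehicle samples kept and vehicle C09 the lowest of all. The log2 fold change was -2.26 ± 0.38 over 7 (adjusted p = 0.023) and -0.77 ± 0.66 over 10 (adjusted p = 0.98). Without vehicle C02 the calls of all 8 genes but Mobp were lost over the remaining 6 samples, with adjusted p of 0.13 to 0.26. Without vehicle C04 or vehicle C05, 5 and 4 of the 8 were called. Without Cort C01 or C03 5 were called in each case, and without Cort C06 all 8.

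Promoters of these genes were searched for glucocorticoid response elements, because they are the members that moved. The windows run from 250 bases before to 50 bases after a RefSeq transcript start (GRCm38.p6). Of the 9 called genes 8 had a window, and Agrp had none. Several spellings were tried on both strands. The full spelling was AGAACA, any 3 bases and TGTTCT, the shorter one GNACA, any 3 bases and TGTNC (N is any base), and the single arm AGAACA. The full spelling holds the other 2, and the full and shorter ones read alike on both strands. Of 32851 windows, the full spelling was in 3 (0.00913%), the shorter in 156 (0.475%) and the arm in 6233. The arm was in windows of 14.6% of the 9762 tested genes with a window. The shorter spelling was present in windows of 2 called genes, Fam107a and Serpina3n, and of Mt1, a metallothionein of the glucocorticoid-induced list. These 3 are shown 5′ to 3′ with the match in capitals. The match begins at base 133 of the 300 in Fam107a, base 173 in Serpina3n and base 157 in Mt1.
Fam107a, chr14:8309730-8310029, minus strand: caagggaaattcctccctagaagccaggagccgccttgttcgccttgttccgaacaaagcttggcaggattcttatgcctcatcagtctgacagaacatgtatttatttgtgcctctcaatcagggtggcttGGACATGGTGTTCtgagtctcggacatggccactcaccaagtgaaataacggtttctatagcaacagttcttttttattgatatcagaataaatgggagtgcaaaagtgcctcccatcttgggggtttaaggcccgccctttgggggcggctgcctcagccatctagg
Serpina3n, chr12:104406458-104406757, plus strand: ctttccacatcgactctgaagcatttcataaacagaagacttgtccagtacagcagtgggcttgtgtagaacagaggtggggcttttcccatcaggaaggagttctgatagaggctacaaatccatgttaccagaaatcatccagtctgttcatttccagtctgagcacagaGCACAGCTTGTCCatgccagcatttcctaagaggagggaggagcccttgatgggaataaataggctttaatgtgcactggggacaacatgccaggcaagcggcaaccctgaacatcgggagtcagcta
Mt1, chr8:94178839-94179138, plus strand: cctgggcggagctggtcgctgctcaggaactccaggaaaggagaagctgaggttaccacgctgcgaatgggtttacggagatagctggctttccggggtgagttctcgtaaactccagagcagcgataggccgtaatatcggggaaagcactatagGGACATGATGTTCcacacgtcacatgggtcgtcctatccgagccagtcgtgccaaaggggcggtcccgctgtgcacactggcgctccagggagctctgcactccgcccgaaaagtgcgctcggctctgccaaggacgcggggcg

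The same 3 genes were the only holders among the 90 genes higher at P below 0.01 over 7 samples that had a window (3.33%), against 0.369% of 9762 tested genes with a window, and 0 of 68 lower genes held it. The windows of Fkbp5, Glul, Mobp, Sepp1, Fam213a and 1110008L16Rik did not hold the shorter spelling. A match is a string of letters and not a measured site.

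Counting Serpina3n and Fkbp5, 40 genes (0.334% of those tested) were higher and 56 (0.467%) lower in each Cort sample than in each vehicle sample over all 10. Of these, 21 higher and 24 lower genes also had P below 0.01 by edgeR over 10. The 10 with the smallest P in each direction are described. They were chosen for groups that do not overlap, so that property is not a result. Were the Cort and vehicle labels interchangeable, a gene without ties would separate 5 and 5 samples, in either direction, with probability 0.0079. The counts of 40 higher and 56 lower genes are therefore not read as a response to Cort, which was not tested. Among the higher genes besides Serpina3n and Fkbp5, 2 are receptors for peripheral hormones to which the ARC responds. Ghsr, the receptor for ghrelin, was at 32.6, 34.5 and 28.7 CPM in vehicle C02, C04 and C05, and 28.9 and 17.4 CPM in vehicle C07 and C09. In Cort it was at 72.4, 56.6, 39.6 and 54.5 CPM in Cort C01, C03, C06 and C10, and 90.7 CPM in Cort C08. Ghsr had a log2 fold change of 1.15 ± 0.29 over 10, with adjusted p of 0.61 by edgeR and 0.045 by DESeq2, and 0.81 ± 0.30 over 7, where DESeq2 gave 0.3. Lepr, the leptin receptor, was lower in level, with 4.98, 10.1, 12.2, 12.2 and 5.99 CPM in vehicle (order C02, C04, C05, C07, C09). Cort samples had 29.4, 17.5, 15.5, 31.4 and 38.1 CPM (order C01, C03, C06, C10, C08). Its log2 fold change was 1.54 ± 0.43 over 10 samples, with adjusted p of 0.77 by edgeR and 0.079 by DESeq2. Over 7 it was 1.37 ± 0.48, with adjusted p of 0.69 by edgeR and 0.28 by DESeq2. As in Ghsr, Cort C06 was close to the vehicle samples and Cort C08 was the highest.

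Acvr1c, a type I receptor for activins and related ligands, was at 42.5, 73.3, 55.1, 65.8 and 44.5 CPM in the vehicle samples and 202, 82.2, 80.2, 179.8 and 116 CPM in the Cort samples, in the same orders. The groups did not overlap, with the highest vehicle and the lowest Cort samples close to each other. The log2 fold change was 1.24 ± 0.27 over 10 samples (adjusted p = 0.26 by edgeR and 0.014 by DESeq2) and 1.26 ± 0.31 over 7. Fbln5, an extracellular matrix protein of elastic fibers, was at 4.23, 1.29, 4.27, 8.71 and 2.85 CPM in the vehicle samples and 11.4, 21.9, 9.29, 36.2 and 46.3 CPM in the Cort samples. This was the largest difference of the 10 higher genes, with 2.54 ± 0.57 over 10 and 2.58 ± 0.65 over 7, in a gene with few counts in vehicle. Over 10 its adjusted p was 0.27 by edgeR and 0.0067 by DESeq2. Arhgef3, a guanine nucleotide exchange factor, was at 19.6, 32.98, 26.2, 22.9 and 32.2 CPM in the vehicle samples and 57.01, 53.9, 40.2, 72.4 and 69 CPM in the Cort samples. Its log2 fold change was 1.14 ± 0.28 over 10 (adjusted p = 0.58 by edgeR and 0.025 by DESeq2) and 1.09 ± 0.32 over 7. Group means over 10 samples (± SD, n = 5 each) were 139 ± 13.8 and 217 ± 42.6 CPM for Rbbp7, a histone-binding protein of chromatin complexes, and 8.05 ± 2.82 and 24.2 ± 7.64 for Zfp950. Pitpnm2, of a family of phosphatidylinositol transfer proteins, had 17.4 ± 3.11 and 55.5 ± 61.1 CPM, and its Cort mean rests on C06 at 164 CPM, with 22.4 to 41.8 in the other 4. Log2 fold changes over 10 and over 7 samples were 0.65 ± 0.17 and 0.60 ± 0.18 for Rbbp7, 1.60 ± 0.43 and 1.31 ± 0.46 for Zfp950, and 1.69 ± 0.47 and 2.003 ± 0.55 for Pitpnm2. Without Cort C06 Pitpnm2 had 0.72 over the remaining 9. For Rbbp7, Zfp950 and Pitpnm2 over 10, adjusted p was 0.69, 0.74 and 0.77 by edgeR and 0.14, 0.045 and 0.14 by DESeq2.

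**Figure D2:**
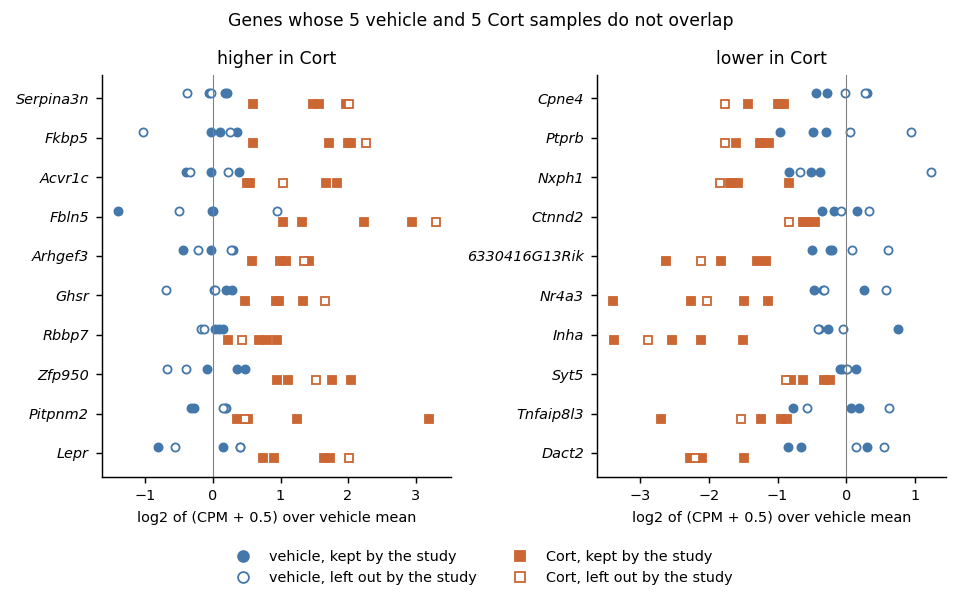
The 10 genes with the smallest P in each direction among those with no overlap between the groups over 10, plotted as log2 of CPM + 0.5 in each sample over the same sum for the mean of the vehicle samples. Circles are vehicle and squares Cort, and open symbols are the samples left out by the study. The open squares (Cort C08) lie at or beyond the filled squares for Serpina3n, Fkbp5, Ghsr and Lepr.

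None of the 10 genes lower in Cort over all 10 samples passed adjustment by edgeR. Cpne4, a copine that binds phospholipids in response to calcium, was at 64.4, 72.2 and 108 CPM in vehicle C02, C04 and C05, and 106 and 86.4 CPM in vehicle C07 and C09. In Cort it had 31.9, 44.5, 43.4 and 46.5 CPM in Cort C01, C03, C06 and C10, and 25.4 CPM in Cort C08. Its log2 fold change was -1.18 ± 0.25 over 10, with adjusted p of 0.26 by edgeR and 0.0067 by DESeq2, and -0.97 ± 0.27 over 7. Nr4a3, a nuclear receptor of the immediate early class, was at 14.9, 13.6, 22.98, 28.8 and 15.1 CPM in the vehicle samples and 6.49, 1.35, 3.57, 8.35 and 4.30 CPM in the Cort samples (orders as above). This was a log2 fold change of -1.98 ± 0.53 over 10 (DESeq2 adjusted p = 0.041) and -1.79 ± 0.62 over 7 (DESeq2 adjusted p = 0.28). The other 15 of 16 immediate early genes tested over 10 had P above 0.05.

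Nxph1, a secreted ligand of neurexins, was at 44.3, 60.6, 55.5, 49.4 and 186 CPM in the vehicle samples and 24.1, 44.1, 24.6, 26.2 and 21.7 CPM in the Cort samples. Vehicle C09 was far above the other vehicle samples, and the lowest vehicle sample was close to the highest Cort sample, C03. Its log2 fold change was -1.48 ± 0.37 over 10 and -0.84 ± 0.32 over 7. Syt5, a calcium sensor of vesicles, was at 363, 314, 309, 326 and 332 CPM in the vehicle samples and 212, 187, 264, 279 and 179 CPM in the Cort samples, a log2 fold change of -0.54 ± 0.16 over 10 and -0.47 ± 0.16 over 7. Ctnnd2, the delta-catenin of synaptic junctions, had 350.4 ± 66.1 CPM in vehicle and 229.7 ± 21.3 in Cort (mean ± SD, n = 5 each), and Ptprb, a receptor phosphatase of endothelial cells, 65.9 ± 36.6 and 25.02 ± 4.61. The group means of 6330416G13Rik were 21.2 ± 6.87 and 6.13 ± 2.56 CPM, those of Tnfaip8l3 39.9 ± 15.6 and 15.6 ± 6.36, and those of Dact2, an inhibitor of Wnt and TGF-beta signaling, 8.44 ± 3.49 and 1.68 ± 0.565. Inha, the alpha subunit of inhibin, was at 3.44 to 8.34 CPM in vehicle and 0 to 1.35 CPM in Cort, close to the floor of 3 counts. Over 10 and over 7 samples, Ptprb had log2 fold changes of -1.39 ± 0.33 and -0.74 ± 0.32, Ctnnd2 -0.60 ± 0.16 and -0.44 ± 0.15, 6330416G13Rik -1.77 ± 0.47 and -1.36 ± 0.54, Tnfaip8l3 -1.34 ± 0.39 and -1.18 ± 0.43, and Dact2 -2.29 ± 0.67 and -1.91 ± 0.84. Of these lower genes, DESeq2 called Cpne4, Ptprb, Nxph1, 6330416G13Rik and Nr4a3 over 10 samples, and Cpne4 over 7.

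One Cort library was often the one nearest to vehicle. Cort C06 had the lowest value of the 5 Cort samples in 9 of the 21 separated higher genes (42.9%) and the highest in 10 of the 24 separated lower genes (41.7%), against 2274 (lowest) and 2424 (highest) of all 11983 genes tested. In the 32 glucocorticoid-induced genes tested it was the lowest in 14 (43.8%). Without Cort C06, edgeR called 15 higher genes and 1 lower over the remaining 6 of the samples kept, and 6 higher genes over the remaining 9 of all samples, namely Acvr1c, Cdkn1a, Fam43a, Fkbp5, Lancl3 and Serpina3n. Avp and Oxt, the peptides of magnocellular neurons that lie outside the ARC, were highest in Cort C06 and C08. Avp was at 326 and 289.9 CPM there, with 8.34 to 48.2 in the other 8 samples. Oxt was at 86.8 and 112 CPM there, with 13.6 to 41.6 in the others.

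Among the lists with at least 10 members tested, other than the panel the study chose on these samples, the glucocorticoid-induced genes had the highest share of higher genes. Of 39 genes in the count table, 32 passed the filter on low counts. Over 7 samples, 12 of these were higher and 1 lower at an unadjusted P below 0.05, and over 10 samples 13 were higher and 1 lower. Across all genes tested, 3.14% were higher and 2.83% lower over 7 at that threshold, and 2.53% and 2.75% over 10. The median log2 fold change of the list was 0.57 over 7 samples and 0.53 over 10, against 0.02 and -0.02 for all genes. Fam107a and Glul rose over 7, and Fkbp5 rose over 10. The list is not independent of these samples, since 9 of its 32 members are named by the study or are in the panel it chose on them, and 8 of those 9 were higher in each set. Of the other 23 members, 4 were higher and 1 lower over 7 (median 0.34) and 5 were higher and 1 lower over 10 (median 0.26). Without Cort C08, 8 members were higher at P below 0.05 over the remaining 9 samples.

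Cdkn1a, an inhibitor of the cell cycle, and Fam43a were chosen after their values were seen, as was Lancl3. Cdkn1a was at 8.96, 22.4 and 12.8 CPM in vehicle C02, C04 and C05, and 3.44 and 5.42 CPM in vehicle C07 and C09. In Cort it was at 41.6, 75.4, 12.7 and 35 CPM in Cort C01, C03, C06 and C10, and 99.3 CPM in Cort C08. Cort C06 was within the vehicle range and the other 4 Cort samples were above it. Cdkn1a had a log2 fold change of 2.32 ± 0.51 over 10, with adjusted p of 0.27 by edgeR and 0.0067 by DESeq2, and 1.48 ± 0.49 over 7, where DESeq2 gave 0.24. Fam43a had 18.7, 13.4, 11.2, 5.47 and 23.7 CPM in the vehicle samples and 85.7, 114, 16.4, 17.5 and 94.6 CPM in the Cort samples (order C02, C04, C05, C07, C09 and C01, C03, C06, C10, C08). Cort C06 and C10 overlapped vehicle. Its log2 fold change was 2.19 ± 0.49 over 10, with adjusted p of 0.27 by edgeR and 0.0096 by DESeq2. Over 7 it was 2.03 ± 0.55, with adjusted p of 0.44 by edgeR and 0.48 by DESeq2. Lancl3, which is on no list, was at 43.8 ± 9.90 CPM in vehicle and 109 ± 35.9 in Cort (mean ± SD, n = 5 each). Its log2 fold change was 1.33 ± 0.27 over 10 (adjusted p = 0.26 by edgeR and 0.0067 by DESeq2). Over 7 it was 1.17 ± 0.30 (adjusted p = 0.44 by edgeR and 0.065 by DESeq2).

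Metallothioneins bind zinc and copper and are classical targets of glucocorticoids. Mt1 was at 112, 73.7, 130.5, 178 and 189 CPM in the vehicle samples and 152, 177, 169, 152 and 385 CPM in the Cort samples, and Mt2 at 135, 78.7, 84.4, 209.8 and 201 CPM in the vehicle samples and 157, 165, 134, 283 and 421 CPM in the Cort samples. In both genes Cort C08 was the highest sample. For Mt1, vehicle C07 and C09 each lay above all the Cort samples kept, and for Mt2 above all of them but C10. The log2 fold changes over 7 and 10 samples were 0.63 ± 0.20 and 0.61 ± 0.26 for Mt1 and 0.90 ± 0.25 and 0.72 ± 0.30 for Mt2, with edgeR adjusted p of 0.44 or more. Annotated exons of Gm45774 cover 73.5% of those of Mt2. Paqr8, a membrane progestin receptor, had 0.60 ± 0.16 over 7 and 0.53 ± 0.18 over 10, and Ociad2 0.65 ± 0.18 and 0.36 ± 0.20. Of the other members, the receptor-induced Sgk1, Tsc22d3 and Zbtb16 were named after their values were seen. Sgk1, whose promoter windows include 1 with the full spelling, was at 30.4, 17.7, 20.1, 31.2 and 7.70 CPM in the vehicle samples and 22.5, 59.9, 18.6, 20.3 and 32.8 CPM in the Cort samples (log2 fold change 0.42 ± 0.43 over 7 and 0.53 ± 0.42 over 10, edgeR adjusted p = 0.98). Tsc22d3, which encodes GILZ, had 0.31 ± 0.38 over 7 and 0.26 ± 0.34 over 10 (edgeR adjusted p = 0.98), and Zbtb16 1.33 ± 0.68 and 1.84 ± 0.64 with edgeR adjusted p = 0.85 and a range in Cort of 3.21 to 84.5 CPM. The receptor gene Nr3c1 was at 170.4 ± 31.3 CPM in vehicle and 195 ± 28.01 in Cort (mean ± SD, n = 5 each), with edgeR adjusted p = 0.98.

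**Figure D3:**
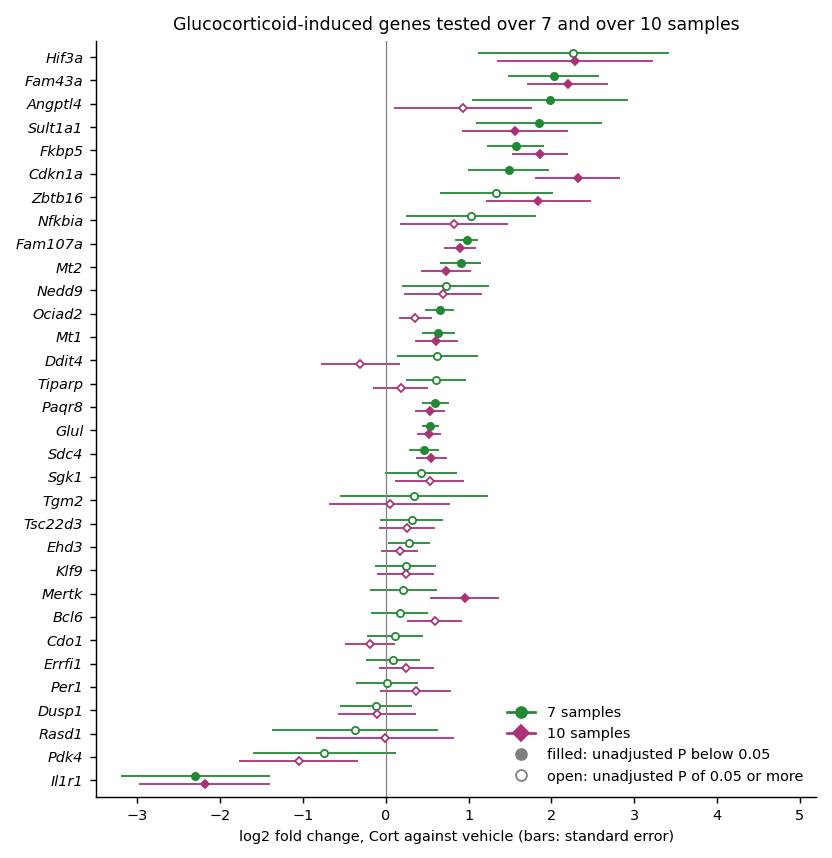
Log2 fold change of Cort against vehicle by edgeR for the 32 glucocorticoid-induced genes tested, over 7 samples (circles) and 10 samples (diamonds), with SE as bars. Filled symbols have an unadjusted P below 0.05, and 12 genes over 7 and 13 over 10 lie filled to the right of 0, with Il1r1 filled on the left in both.

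In the list of AgRP neuron genes, 5 of 14 were higher and 3 lower at P below 0.05 over 7 samples, and 3 were higher and none lower over 10 (edgeR), with medians of 0.07 and 0.00. The shares over all genes tested were 3.14% higher and 2.83% lower over 7, and 2.53% and 2.75% over 10. Of the 5 higher genes 4 are in the panel the study chose on these samples. Npy, the second peptide of these neurons, was at 307, 473 and 358 CPM in vehicle C02, C04 and C05, and 637 and 575 CPM in vehicle C07 and C09. Cort samples had 546, 490.0, 489 and 595 CPM in Cort C01, C03, C06 and C10, and 857 CPM in Cort C08. Both vehicle samples left out were above most Cort samples, and the log2 fold change was 0.49 ± 0.15 over 7 (adjusted p = 0.52) and 0.35 ± 0.19 over 10 (adjusted p = 0.95). Sgip1, an endocytic protein, was lower, with -0.42 ± 0.14 over 7 and -0.22 ± 0.21 over 10. Pomc, the precursor of melanocortins, was at 236, 335, 347, 428 and 377 CPM in the vehicle samples and 558, 322, 425, 490.4 and 529.9 CPM in the Cort samples. The groups overlapped, and its log2 fold change was 0.56 ± 0.17 over 7 (adjusted p = 0.54) and 0.44 ± 0.17 over 10 (adjusted p = 0.92). Of the 14 genes of POMC neurons and prohormone processing, 1 was higher and 1 lower at P below 0.05 over 7 (7.14% each), and 1 higher and none lower over 10. Nmb, a bombesin-like peptide, was at 6.72, 3.02, 1.42, 26.5 and 13.7 CPM in the vehicle samples and 32.3, 16.8, 21.6, 15.1 and 63.7 CPM in the Cort samples, with 2.55 ± 0.60 over 7 and 1.55 ± 0.60 over 10. Of its exon bases 20.6% are shared with Sec11a. Chgb, a granin of secretory granules, was lower, with -0.42 ± 0.13 and -0.41 ± 0.17.

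Receptors for feeding hormones had 4 higher and 2 lower of 33 tested over 7, and 3 higher and none lower of 32 over 10, by edgeR at P below 0.05. Among all genes tested 3.14% were higher and 2.83% lower over 7, and 2.53% and 2.75% over 10. All 4 higher genes over 7 are in the panel the study chose on these samples. The 3 higher over 10 were Ghsr, Lepr and Ghr. Ghr, the growth hormone receptor, was at 87.2 ± 29.8 CPM in vehicle and 131 ± 45.7 in Cort (mean ± SD, n = 5 each), with 0.86 ± 0.26 over 7 and 0.59 ± 0.25 over 10. Igf1r had 0.55 ± 0.22 over 7 and 0.14 ± 0.23 over 10. Htr2c, a serotonin receptor of POMC neurons, had 51.8, 41.8, 33.4, 3.44 and 4.28 CPM in the vehicle samples and 27.1, 21.9, 18.04, 7.96 and 10.8 CPM in the Cort samples. Vehicle C07 and C09 were the lowest of the 10 samples, and the log2 fold change was -1.15 ± 0.39 over 7 and -0.63 ± 0.58 over 10. Htr1a was higher, with 0.86 ± 0.39 and 0.96 ± 0.44.

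GABA A receptors are the chloride channels through which AgRP and other neurons inhibit their targets. Of 13 subunits tested, 3 were lower and none higher at P below 0.05 over 7, with a median of -0.22, and over 10 samples 1 was lower and none higher (edgeR, with no subunit below an adjusted p of 0.1). The share of lower genes among all tested was 2.83% over 7 and 2.75% over 10. All 3 subunits lower over 7 belong to the panel the study chose on these samples. Their direction is thus not independent evidence over 7 or over 10. Gabra3 was at 184, 146 and 161 CPM in vehicle C02, C04 and C05, and 63.4 and 160.3 CPM in vehicle C07 and C09. In Cort it was at 107, 107, 97.2 and 97.05 CPM in Cort C01, C03, C06 and C10, and 90.5 CPM in Cort C08. The 3 vehicle samples kept and C09 were above each Cort sample, and vehicle C07 was below each. The log2 fold change was -0.67 ± 0.18 over 7 (adjusted p = 0.44 by edgeR and 0.066 by DESeq2) and -0.51 ± 0.23 over 10. Gabrq, the theta subunit, had -0.54 ± 0.14 and -0.26 ± 0.19, and Gabre, the epsilon subunit, -0.63 ± 0.17 and -0.38 ± 0.21. For Gabrq, vehicle C07 and C09 at 181 and 247 CPM lay below the vehicle samples kept (319.7 to 423 CPM).

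Other neuronal lists were counted the same way. Beside them, 3.14% of all genes tested were higher and 2.83% lower over 7, and 2.53% and 2.75% over 10. Of 44 genes of synaptic vesicle release, 7 were lower and 1 higher over 7 samples, and 2 lower and 1 higher of 43 over 10. Of the 7 lower genes 3, Slc17a6, Bsn and Pclo, are in the panel the study chose on these samples. Slc17a6, the glutamate transporter that loads vesicles in hypothalamic neurons, had -0.62 ± 0.17 over 7 and -0.40 ± 0.28 over 10, and the active zone scaffold proteins Bsn and Pclo -0.54 ± 0.16 and -0.48 ± 0.15 over 7 and -0.49 ± 0.24 and -0.35 ± 0.18 over 10. Among 24 glutamate receptors, 3 were lower and none higher over 7 by edgeR at P below 0.05, Grin3a with the smallest P, and over 10 samples 1 was lower and 2 higher of 23. Grin3a, an NMDA receptor subunit, kept its groups apart over all 10 samples, with 85.8, 85.8, 83.6, 92.5 and 79.3 CPM in the vehicle samples and 47.5, 34.7, 72.3, 58.9 and 45.05 CPM in the Cort samples and a log2 fold change of -0.66 ± 0.26 over 7 and -0.71 ± 0.23 over 10. Of 64 potassium channel genes, 6 were lower and 4 higher over 7, among them Kcna3 (-1.48 ± 0.49), Kcnh5 (-1.10 ± 0.37) and Kcnip1 (0.65 ± 0.21). Over 10, 7 of 59 were lower and 2 higher, and these 3 genes had -1.19 ± 0.57, -0.85 ± 0.38 and 0.40 ± 0.21. No gene of the endoplasmic reticulum and integrated stress response was higher or lower at P below 0.05 in either set, of 24 tested by edgeR.

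**Figure D4:**
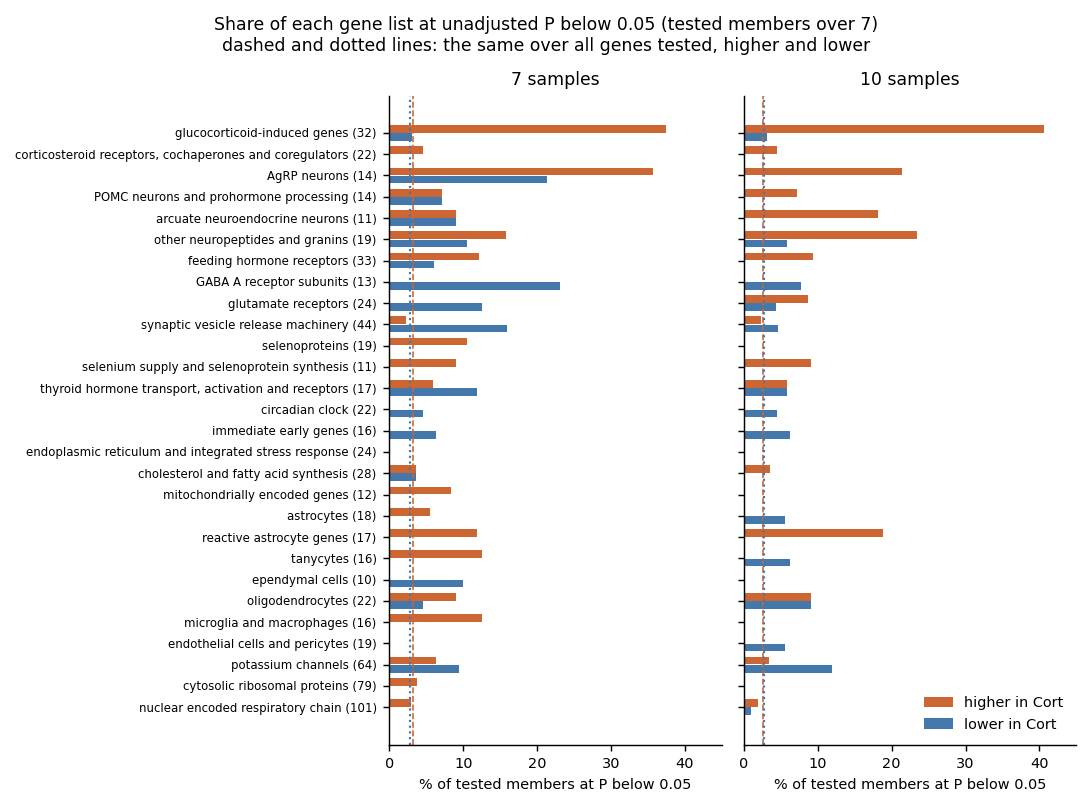
Share of tested members of each gene list with at least 10 members tested over 7 samples, leaving out the lists taken from the study's qRT-PCR, that were higher (orange) or lower (blue) at an unadjusted P below 0.05, over 7 and over 10 samples. Dashed and dotted lines are the shares of all genes tested, 3.14% higher and 2.83% lower over 7 and 2.53% and 2.75% over 10. Of the lists drawn, the glucocorticoid-induced genes have the longest bar in both panels, while the lower bars of GABA A receptor subunits and synaptic vesicle release are shorter over 10.

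Dio2 is the tanycyte enzyme that activates thyroxine, and is itself a selenoprotein. Dio2 was at 22.1, 55.2 and 28.3 CPM in vehicle C02, C04 and C05, and 196 and 73.3 CPM in vehicle C07 and C09. Its Cort values were 112, 90.9, 50.7 and 108 CPM in Cort C01, C03, C06 and C10, and 211 CPM in Cort C08. Vehicle C07 was the second highest of all 10 samples. The log2 fold change was 1.36 ± 0.33 over 7, with adjusted p of 0.44 by edgeR and 0.037 by DESeq2, and 0.62 ± 0.44 over 10 (edgeR adjusted p = 0.98). The summed level of 18 tanycyte genes, Dio2 included, was 369 to 572 CPM in the vehicle samples kept, 520.3 to 690.5 in the Cort samples kept, and 947, 811 and 1038 in vehicle C07, vehicle C09 and Cort C08. Its part in the Dio2 result over 7 samples was not tested. Among 16 tanycyte genes tested, Dio2 and Fndc3c1 were higher and none lower at P below 0.05 over 7, and none was higher and 1 lower over 10 (edgeR). All genes tested had 3.14% higher and 2.83% lower over 7, and 2.53% and 2.75% over 10. Of 19 selenoproteins, Sepp1 and Dio2 were higher over 7, both in the panel the study chose on these samples, and none over 10 (edgeR). Lrp8, the receptor that takes up selenoprotein P, had 0.56 ± 0.21 over 7 and 0.55 ± 0.21 over 10. Hr, a corepressor regulated by thyroid hormone, was at 17.9, 10.8, 32.3, 11.3 and 56.5 CPM in the vehicle samples and 23.04, 59.3, 18.04, 27.8 and 86.6 CPM in the Cort samples, with edgeR adjusted p = 0.95 over 10.

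Of astrocyte genes, 1 of 18 was higher over 7 and 1 lower over 10 at P below 0.05 (5.56% each). For this and the next lists, the shares over all genes tested were 3.14% higher and 2.83% lower over 7, and 2.53% and 2.75% over 10. Aldoc, a glycolytic enzyme of astrocytes, had 0.34 ± 0.10 over 7 and 0.21 ± 0.15 over 10. Aqp4, the water channel of astrocyte endfeet, was lower in each Cort sample than in each vehicle sample. It was at 156, 179.6, 160.0, 319 and 245 CPM in the vehicle samples and 142, 74.8, 129.5, 152 and 129 CPM in the Cort samples. Aqp4 had a log2 fold change of -0.74 ± 0.22 over 10, with adjusted p = 0.77 by edgeR and 0.27 by DESeq2, and -0.39 ± 0.21 over 7 (adjusted p = 0.86), where the vehicle samples with the highest values, C07 and C09, are left out. Gfap did not pass in either set. Of 16 microglial genes, C1qb (0.85 ± 0.27 over 7, 0.26 ± 0.28 over 10) and Ctss (0.51 ± 0.23, 0.36 ± 0.22) were higher over 7 and none over 10 (edgeR, with no microglial gene lower at P below 0.05 in either). In the oligodendrocyte list, 2 of 22 were higher and 1 lower over 7, and 2 higher and 2 lower over 10, with medians of 0.27 and 0.00. Sox10, the transcription factor of this lineage, was lower, with -1.36 ± 0.55 over 7 and -1.03 ± 0.53 over 10, opposite in sign to Mobp. In bulk tissue, fewer cells of a type and less RNA per cell cannot be told apart.

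Levels of the cell type lists were as follows. Over the 18 astrocyte genes the summed level was 6825 to 7464 CPM in vehicle and 6235 to 8547 in Cort among the samples kept, and 11730.0 CPM in vehicle C07. The 19 genes of microglia and macrophages summed to 457 to 508 CPM in the vehicle samples kept and 528 to 669 in the Cort samples kept, and to 854, 661 and 599 CPM in C07, C09 and C08. Blood genes (5) summed to 25.0 to 60.5 CPM in the vehicle samples kept, 46.5 to 113 in the Cort samples kept, and 273, 127 and 277 CPM in C07, C09 and C08. VMH neuron genes (8) summed to 73.7 CPM in vehicle C07 and 111 in Cort C08, against 219 to 317 and 150.4 to 243 in the samples kept. Among the samples kept, the Cort and vehicle ranges of the microglia and macrophage list do not overlap, those of the oligodendrocyte list overlap, and the part of either in the results over 7 was not tested. Neither Serpina3n nor Fkbp5 lost its call over 10 with the mean log2 CPM of the oligodendrocyte or the tanycyte list as a covariate. The astrocyte, microglia and blood lists were not used as covariates, so their part in these calls was not tested.

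Of 17 reactive astrocyte genes tested, 2 were higher and none lower at P below 0.05 over 7, and 3 of 16 higher and none lower over 10 by edgeR, with medians of 0.42 and 0.43, and Serpina3n is among them. Cytosolic ribosomal protein genes changed sign when the samples left out were added. Over 7 samples, 67 of 79 had a positive log2 fold change (median 0.15), and 12 of 79 over 10 (median -0.12), with 3 and 0 higher at P below 0.05 by edgeR and none lower in either. Of 22 circadian clock genes, 1 was lower and none higher at P below 0.05 in each set (edgeR), with medians of -0.22 and -0.23. Over all genes tested, 3.14% were higher and 2.83% lower over 7, and 2.53% and 2.75% over 10.

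**Figure D5:**
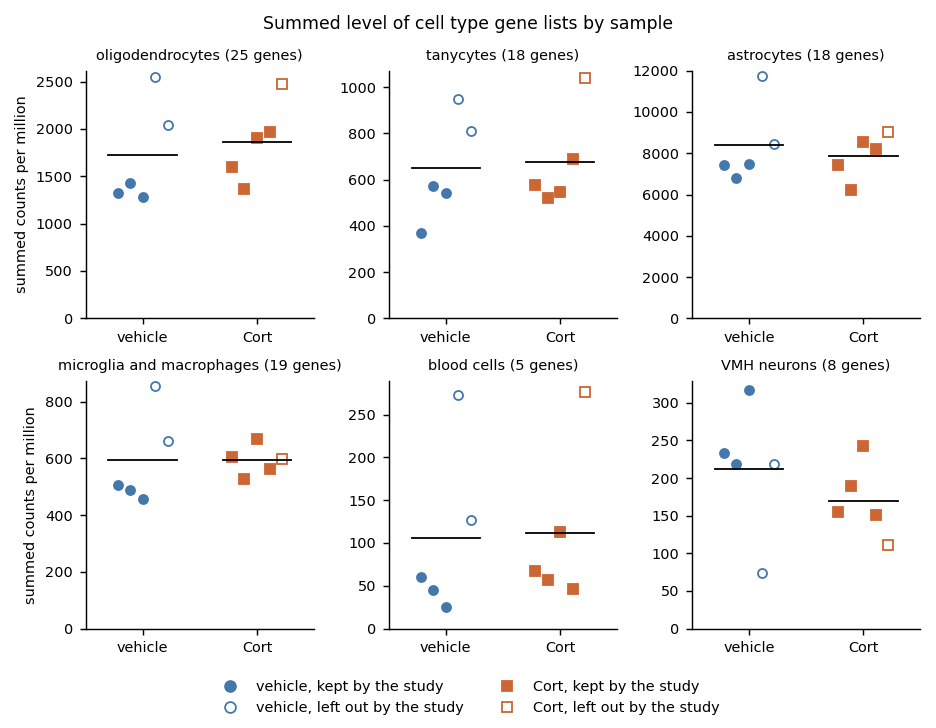
Summed CPM of 6 cell type gene lists in each of the 5 vehicle and 5 Cort samples, with lines at the means of 5. Open symbols are the samples left out by the study. Vehicle C07 is the highest vehicle sample for 5 of the lists and the lowest for VMH neurons.

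The study picked genes for qRT-PCR from the 7 samples kept, so their direction over those samples is not independent evidence. It measured them in some of the sequenced samples and in additional ARC samples of both groups. The study reported a clear correlation between the qRT-PCR and the RNA-seq, and those qRT-PCR values were not analysed here. Of 23 genes it listed as upregulated, 23 were higher at P below 0.05 over 7 samples and 19 over 10, with medians of 0.98 and 0.81. Of 14 listed as downregulated, 14 were lower over 7 and 3 over 10 (Gabra3, Hdac5 and Cntn5), with medians of -0.63 and -0.39. The 7 samples are among the 10, so the counts over 10 are not independent evidence either. Shares over all genes tested were 3.14% higher and 2.83% lower over 7, and 2.53% and 2.75% over 10. Hdac5, a histone deacetylase, had -1.001 ± 0.27 over 7 and -0.92 ± 0.28 over 10, and Chd5, a chromatin remodeler of neurons, -0.61 ± 0.16 and -0.36 ± 0.19. Fry had -0.55 ± 0.15 and -0.35 ± 0.21. Cited1, a transcriptional coregulator of the upregulated panel that was chosen after its values were seen, had 0.82 ± 0.17 and 0.64 ± 0.20, with vehicle C07 at 401 CPM above Cort C06 at 295 CPM.

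The 3 samples left out were not used in the fit over 7, and the difference between Cort C08 and the mean of vehicle C07 and C09 is given for each group of genes as a description. It rests on 1 Cort library, which stood apart from the other Cort samples in genes that include Glul, Sepp1, Mt1 and Npy, so it does not support a direction. The 7 genes that rose over 7 samples were each higher in C08 than in that mean, with a median log2 difference of 0.78, against 0.98 over 7 samples. 1110008L16Rik was higher there, opposite to its fall. Of the 102 genes higher at P below 0.01 over 7 samples, 72 (70.6%) were higher in C08, against 52.5% of the 6415 genes tested with a positive log2 fold change. Of the 81 lower genes, 48 (59.3%) were lower in C08, against 52.0% of 5894. The median log2 difference of the 102 genes was 0.32 in the samples left out and 1.13 over 7, and that of the 81 genes was -0.08 and -0.89. Of the 23 genes of the upregulated panel 21 were higher in C08 than in the mean of C07 and C09, with a median of 0.81, and of the 14 of the downregulated panel 6 were lower, with a median of 0.03. The glucocorticoid-induced list had 23 of 32 members higher in C08, with a median of 0.76, against 6191 of 12309 genes and 0.01.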

How the data were processed

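RNA of laser-captured ARC was measured in 10 libraries of the 2 day dataset. Per the labels and the study's methods, Rsubread aligned the single-end reads to GRCm38 and featureCounts summed them per gene. The authors deposited these raw counts for 22048 genes in each library. The annotation release and the strand setting are not given in the sources used here. Gene symbols were taken by gene ID from the authors' normalized table, whose sample headers do not match the raw counts and were not used. The 4 week dataset was not analysed here. Columns were placed in groups by their numbers in the study's sample table, which does not tie them to the replicate numbers of the labels.

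CPM was computed here from the deposited counts with TMM scaling over 10 samples, and log2 CPM with a prior count of 2. Cort and vehicle were compared by edgeR's quasi-likelihood test (R 4.3.3, edgeR 4.0.16, limma 3.58.1, DESeq2 1.42.0) on genes kept by its filter, without covariates, over 7 and over 10 samples, with Benjamini-Hochberg adjustment and a threshold of 0.1. SE was the log2 fold change over the square root of F. Single genes were also compared by a 2-sided exact permutation test on log2 CPM (scipy 1.17.1), which cannot go below 0.057 for 3 against 4 samples. Sequences came from RefSeq promoter windows, matched by symbol or by a single synonym, and gene positions and exon overlaps from GENCODE M21 (GRCm38). Alternatives were DESeq2, RLE and upper quartile scaling, no filter, at least 10 counts in every sample, limma voom with quality weights, robust estimation, leaving out each sample, and, over 10, the mean log2 CPM of oligodendrocyte or tanycyte genes as a covariate. The tests were tested on simulated data.

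Named genes were those called by edgeR in either set, genes named by the study, the 10 with the smallest P in each direction whose groups did not overlap over 10, up to 4 members of each list with the smallest P over 7, and cell type markers. Some genes that the rule names are not reported here. The members and lists were chosen with earlier results of these data known. Lists hold general knowledge and genes of the study. Lists are described by counts and medians, without a test. Depth limits genes near 3 counts per library. Floors leave out the error that amplification adds.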

Additional observations from a re-analysis of the deposited data

Results flagged for a closer look

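In each group of 5 samples, a library was singled out where its distance to the nearest other sample exceeded 0.71 of the range of the group (Dixon's 95% critical value). Of 170 groups examined over genes and cell type lists, 14 had such a library. Dixon's value gives about 1 in 20 for independent, normally distributed values. Here it was applied to CPM of genes measured in the same samples and partly chosen on them, so 14 is not read as an excess.

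Cort C08 stood apart in 6. It was at 53.0 CPM of 1110008L16Rik (the other Cort samples had 6.06 to 12.97), 2416 CPM of Glul (1516 to 1720.0), 822 CPM of Sepp1 (544 to 605), 385 CPM of Mt1 (152 to 177) and 857 CPM of Npy (489 to 595), and its summed level of blood genes was 277 CPM (46.5 to 113). Vehicle C07 stood apart in 3, at 326 CPM of Mobp (the other vehicle samples had 43.5 to 100.1), 226 CPM of Nr3c1 (150.0 to 163) and 140.1 CPM of Ghr (69.9 to 79.3). These 9 concern 2 of the 3 samples the study left out, and vehicle C09, the third, stood apart for Nxph1 (186 CPM against 44.3 to 60.6).

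Among the samples kept, Cort C06 was apart for Pitpnm2 (164 CPM against 22.4 to 41.8) and Dact2 (2.68 CPM against 1.35 to 1.59), Cort C03 for Nxph1 (44.1 CPM against 21.7 to 26.3), and vehicle C05 for Inha (8.34 CPM against 3.44 to 4.56). Without Cort C06 the log2 fold change of Pitpnm2 over 10 samples was 0.72.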

How the results depend on the processing

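No paired analysis was possible because the columns of the count table carry none of the replicate numbers of the labels. Over 7 samples, higher and lower genes at adjusted p below 0.1 numbered 7 and 1. They were 34 and 18 by DESeq2, 19 and 5 with no filter, 8 and 2 with at least 10 counts in every sample, and 9 and 2 by limma voom. Leaving out 1 sample each gave 1 to 15 higher and 0 to 3 lower. Genes at P below 0.01 were 183, with 304 by DESeq2, 284 with no filter, and 108 (without vehicle C05) to 219 with 1 sample left out. Over 10 samples, 2 higher and 0 lower genes became 16 and 9 by DESeq2, 7 and 0 with no filter, 4 and 0 by limma voom, and 2 and 1 (Aqp4) with the oligodendrocyte covariate. Leaving out 1 sample gave 1 to 6 higher. Genes at P below 0.01 were 133, with 295 by DESeq2 and 274 with no filter. The count of glucocorticoid-induced genes higher at P below 0.05, an alternative chosen after seeing the data, was 8 to 15 over 7 samples and 8 to 16 over 10 with 1 sample left out. RLE and upper quartile scaling and robust estimation left the counts of called genes as they were. Of 74 named genes tested, the log2 fold change changed sign for Sgk1 over 7 samples without Cort C03 (-0.14, with 0.68 the highest value with 1 sample left out), and over 10 with the oligodendrocyte covariate for 1110008L16Rik (0.066) and Htr2c (0.082). P was above 0.7 in each. In the samples left out, the share of genes higher at P below 0.01 over 7 that were higher in C08 (70.6%) was 70.6% with a prior count of 0.5 and 72.0% with at least 10 counts. The cause of these changes was not tested. Genes with few counts, such as Inha, Dact2 and Fbln5, are limited by depth.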
